A study of Mus musculus with 15 samples.

Results

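Skeletal muscle releases proteins that act on the muscle itself, on its blood vessels and on distant organs, and 9 genes for such muscle-secreted factors were followed here in mouse quadriceps. They were chosen by symbol, as *Fndc5*, *Mstn*, *Igf1*, *Il15*, *Metrnl*, *Fst*, *Fstl1*, *Lif* and *Sparc*, in the table of RNA-seq values for all libraries, and 8 of the 9 were among its 12529 genes. *Lif* was not among them and has no value here. All 8 reached the mean of 0.5 FPKM (fragments scaled to transcript length and library size) over the 15 libraries that was required for testing, as did 11674 genes in all.

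Each of the 3 groups had 5 libraries. Ex libraries came from wild-type mice given running wheels for weeks and harvested within hours of their last voluntary bout. mTg libraries came from sedentary mice carrying a transgene, labelled PGC1a Tg(+), that expresses the coactivator PGC1α under the muscle creatine kinase promoter and so in muscle fibers. Control libraries came from sedentary wild-type mice. Per the labels every group is on the C57BL/6 strain, and the study used males, put on wheels as young adults. The study describes both purchased mice, for the wheel running, and wild-type littermates of the transgenic mice, and its text does not say which of these the single Control group here came from. It also does not say that each library is 1 animal, so p-values measure only the spread between these libraries, which may be technical. The Ex and mTg comparisons share their Control libraries. *Ppargc1a*, which encodes PGC1α, lay between 50.1 and 56.8 FPKM in mTg, between 4.87 and 7.34 FPKM in Ex and between 5.06 and 12.5 FPKM in Control libraries. Muscle fiber markers had the highest sum of the marker lists in every library, at 71315 to 112090 FPKM over 10 genes. All listed genes together summed to 422128 to 490791 FPKM per library. Reads assigned to the listed genes numbered 14098168 to 16876751 in Ex, 11475817 to 15381111 in mTg and 15686582 to 16917490 in Control libraries. Behind the members stood 5548 to 12395 reads per library for *Sparc* but only 38 to 114 for *Fst* and 66 to 129 for *Metrnl*, so these last levels carry more counting error.

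As background, *Fndc5* encodes a membrane protein whose ectodomain is shed as irisin and is known as a PGC1α target in muscle. Myostatin, the product of *Mstn*, is a TGFβ family ligand that limits muscle mass through activin type II receptors and SMAD2 and SMAD3, and follistatin, from *Fst*, binds and blocks it. Insulin-like growth factor 1 (*Igf1*) promotes growth, interleukin 15 (*Il15*) is a cytokine presented by its own alpha receptor, and leukemia inhibitory factor (*Lif*) signals through gp130. Meteorin-like (*Metrnl*) was described in mice as a PGC1α- and exercise-induced hormone. Follistatin-like 1 (*Fstl1*) and the collagen-binding matricellular protein SPARC are made by fibroblasts as well as by muscle.

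The 2 members whose levels moved in every comparison, in opposite directions, are shown first through their promoters, taken from RefSeq (build GRCm38.p6, which is mm10). The 250 bases before each annotated start site are printed 5′ to 3′ on the gene's strand, at chr1:53061390-53061639 (plus strand) for *Mstn* and at chr4:129136749-129136998 (plus strand) for *Fndc5*. Capitals mark a TATA box (TATAAA) and E-boxes (CANNTG) in *Mstn* and GC boxes (CCCGCC) in *Fndc5*.
Mstn: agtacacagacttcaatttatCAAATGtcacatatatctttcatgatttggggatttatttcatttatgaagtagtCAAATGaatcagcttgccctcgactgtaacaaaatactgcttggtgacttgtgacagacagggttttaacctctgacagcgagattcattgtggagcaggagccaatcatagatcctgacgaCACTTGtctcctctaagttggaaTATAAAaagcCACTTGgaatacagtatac
Fndc5: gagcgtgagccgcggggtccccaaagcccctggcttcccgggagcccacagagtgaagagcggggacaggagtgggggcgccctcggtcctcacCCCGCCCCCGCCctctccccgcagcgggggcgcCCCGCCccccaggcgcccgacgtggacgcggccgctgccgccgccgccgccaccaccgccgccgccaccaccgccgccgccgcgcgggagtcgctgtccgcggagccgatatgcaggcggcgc
These windows differ in composition. Over the full window of 300 bases, which runs on to 50 bases after the start, GC content was 41.3% at *Mstn* and 82.3% at *Fndc5*, beside a median of 52.7% over 32851 promoters. Searched on both strands, the *Mstn* window held a TATA box beginning at base -29 and 4 E-boxes beginning at -229, -174, -52 and -19, while the *Fndc5* window held 3 GC boxes beginning at -156, -150 and -123. TATAAA was present in 13.6%, CANNTG in 72.3% and CCCGCC in 35.3% of all promoter windows of this length. The letters AAGGTCA, an extended half-site of nuclear receptors, were in 4.72% of all windows and in 0 of the 7 member windows matched. A match to such letters is a description of the window. *Fst* and *Il15* were not matched.

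By level per transcript length, *Sparc* was the most abundant member in Control muscle and *Fst* the least. Mean Control levels were 172 ± 22.6 FPKM for *Sparc*, 37.1 ± 1.37 for *Fndc5*, 29.4 ± 1.89 for *Mstn*, 21.8 ± 1.18 for *Fstl1*, 4.98 ± 0.725 for *Il15*, 3.71 ± 1.25 for *Igf1*, 2.08 ± 0.342 for *Metrnl* and 1.75 ± 0.469 for *Fst* (SD, n = 5). In this order the libraries of *Il15* and *Igf1* overlapped, as did those of *Igf1* and *Metrnl* and those of *Metrnl* and *Fst*, whereas the other neighbours did not. The order was different in mTg muscle, where *Fndc5* stood at 151 ± 15.8 FPKM and *Il15* at 16.5 ± 4.64 FPKM, above *Mstn* at 8.14 ± 2.32 FPKM. By Control level *Sparc* ranked 287 and *Fst* 9404 of the 12529 genes.

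**Figure D1:**
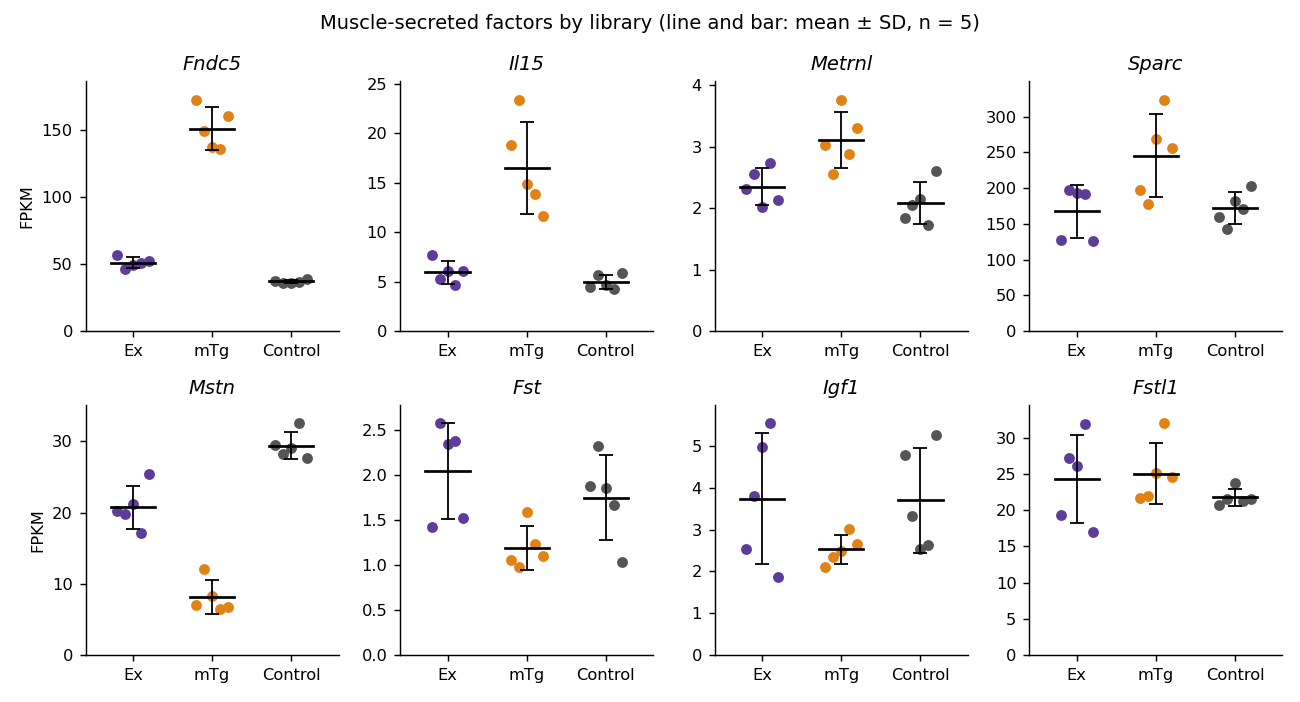
Level of each of the 8 measured muscle-secreted factors (vertical axis, FPKM, starting at 0) in Ex, mTg and Control quadriceps. Each point is 1 library, horizontal lines are means and bars SD (n = 5). The Ex, mTg and Control points of *Fndc5* and of *Mstn* form bands that do not overlap, and those of *Il15* separate mTg from the rest. The share of all genes with groups that do not overlap was not counted.

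Exercise changed 2 of the 8 members. *Fndc5* rose and *Mstn* fell by limma's moderated test on log2(FPKM + 1), with Benjamini-Hochberg adjustment over all 11674 genes and a threshold of 0.05. Over all genes this test called 10.4% in Ex against Control, 5.39% higher and 5.02% lower. With libraries rescaled to equal sums, the genes called were 1224 higher and 208 lower, against 629 higher and 586 lower on the deposited scale, a total that fell to 767, 765 and 755 without Ex replicate 3, Control replicate 3 and Control replicate 4. In mTg against Control 6 of the 8 members changed. *Fndc5*, *Il15*, *Metrnl* and *Sparc* rose and *Mstn* and *Fst* fell, beside 45.4% of all genes called, 22.3% higher and 23.1% lower. In Ex against mTg, *Mstn* and *Fst* were higher and *Fndc5*, *Il15*, *Metrnl* and *Sparc* lower in Ex, beside 41.3% of all genes called, 20.7% higher and 20.7% lower, a split of 2414 and 2413 genes that became 3042 and 1902 on the rescaled libraries. The calls of *Fndc5*, *Mstn* and *Il15* were the same under every alternative processing tried, whereas those of *Fst*, *Metrnl* and *Sparc* were not, as given with each gene. Because 1 is added to each FPKM before the logarithm, the printed log2 fold changes are too small for genes of low level, and their errors are standard errors. In whole muscle, fewer cells of a type and less RNA per cell cannot be told apart.

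**Figure D2:**
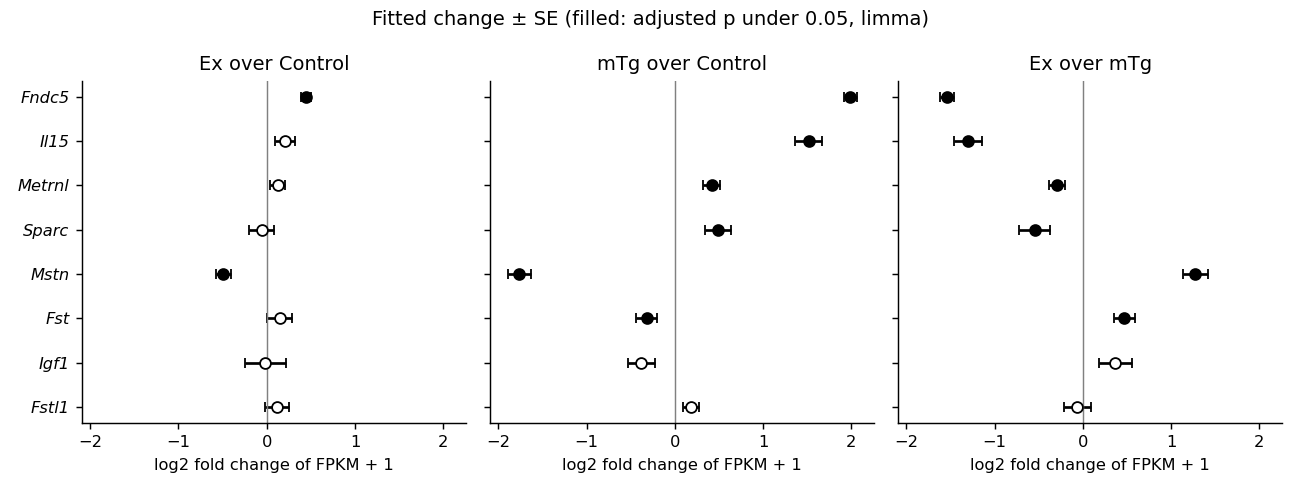
Fitted log2 fold change of FPKM + 1 (horizontal axis) of each member in Ex over Control, mTg over Control and Ex over mTg, with bars of 1 standard error. Filled points passed an adjusted p of 0.05 by limma. *Fndc5* and *Mstn* are filled in all 3 panels, at 0.45 and -0.49 in Ex over Control and at 1.99 and -1.76 in mTg over Control.

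*Fndc5*, on chromosome 4 at 129136999 to 129144593 (mm10, plus strand), measured 57.0, 46.4, 49.5, 50.6 and 52.2 FPKM in Ex libraries. It measured 173, 149, 137, 135 and 161 FPKM in mTg libraries and 37.7, 35.7, 36.1, 37.0 and 39.1 FPKM in Control libraries. The lowest Ex library thus lay above the highest Control library, and the lowest mTg library above the highest Ex library. For this and the later members, the share of all genes with groups so separated was not counted. The log2 fold change was 0.45 ± 0.06 in Ex (adjusted p = 0.000529 by limma) and 1.99 ± 0.07 in mTg (adjusted p = 1.06e-09), where *Fndc5* ranked 7 by p among all genes. Ex against mTg gave -1.54 ± 0.08 (adjusted p = 1.28e-08). Each comparison also reached p = 0.00794 in an exact two-sided permutation test, the smallest that 5 against 5 libraries can give. After Benjamini-Hochberg adjustment over the 24 such tests of members and comparisons it was 0.0238. As a ratio of mean FPKM, *Fndc5* was 1.38 times the Control level in Ex and 4.07 times in mTg. Genes with the most similar profile over the 15 libraries, by the root-mean-square difference of centred log2 values, were *Acadvl* (0.12), which encodes very long-chain acyl-CoA dehydrogenase, *Vopp1* (0.13) and the estrogen-related receptor gene *Esrrb* (0.15), beside a range of 2.24 for *Fndc5* itself. *Acadvl* averaged 243 FPKM in Ex, 633 FPKM in mTg and 183 FPKM in Control libraries.

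Receptors and relatives of irisin and meteorin-like were examined as a list of 10 genes with the partners of follistatin-like 1. In Ex 1 rose and 0 fell by limma, beside 5.39% and 5.02% of all tested genes. These counts were 1 and 0 with limma voom, and 4 and 2 at an unadjusted p under 0.05. In mTg 5 rose and 2 fell, beside 22.3% and 23.1% of all tested genes. *Itgb5*, a subunit of the integrin described as an irisin receptor, measured 22.8 ± 1.65 FPKM in mTg and 33.0 ± 1.26 FPKM in Control libraries (log2 fold change -0.52 ± 0.06, adjusted p = 1.77e-05 by limma). Its partner subunit gene *Itgav* rose by 0.34 ± 0.11 on the log2 scale in mTg (adjusted p = 0.0263). In Ex, *Itgb5* and *Itgav* gave -0.18 ± 0.07 and 0.19 ± 0.08, and neither passed. The median log2 fold change of the list was 0.02 in Ex and 0.18 in mTg, beside -0.01 and -0.02 over all tested genes.

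*Metrnl*, on chromosome 11 at 121701544 to 121716306 (mm10, plus strand), was a weakly expressed member. It measured 2.32, 2.56, 2.02, 2.73 and 2.14 FPKM in Ex libraries, 3.04, 2.55, 3.77, 2.88 and 3.32 FPKM in mTg libraries and 1.85, 2.06, 2.15, 1.73 and 2.61 FPKM in Control libraries. Of the mTg libraries, 4 of 5 lay above every Control library, and replicate 2 lay below the highest of them. The log2 fold change was 0.42 ± 0.10 in mTg (adjusted p = 0.00307 by limma) and 0.13 ± 0.09 in Ex (adjusted p = 0.383). Ex against mTg gave -0.29 ± 0.09 (adjusted p = 0.0187), which no longer passed without Ex replicate 3 (adjusted p = 0.0529). The exact permutation test gave p = 0.0238 (adjusted p = 0.0519) there and p = 0.0159 (adjusted p = 0.0423) for mTg against Control. The related neurotrophic factor gene *Metrn* rose to 32.3 ± 6.28 FPKM in mTg, against 18.6 ± 2.31 FPKM in Control libraries (log2 fold change 0.75 ± 0.12, adjusted p = 0.000232). *Kit*, which encodes a receptor described for meteorin-like in mouse endothelial cells, rose in both groups, to 0.661 ± 0.0867 FPKM in Ex and 0.797 ± 0.216 FPKM in mTg, against 0.426 ± 0.0631 FPKM in Control libraries (log2 fold changes 0.22 ± 0.06 and 0.33 ± 0.08). *Metrn* gave 0.06 ± 0.09 over Control in Ex and did not pass. Endothelial markers were higher than Control in both groups. The summed level of these markers over 10 genes was 201 to 238 FPKM in Ex, 240 to 316 FPKM in mTg and 155 to 188 FPKM in Control libraries. Of the 10, 4 rose in Ex and 9 in mTg, beside 5.39% and 22.3% of all tested genes. None was at 0 in any library, and their part in the result was not tested. *Pycard* (0.10), *Timm22* (0.10) and *Pmm2* (0.10) had the profiles nearest to *Metrnl* by the same measure, beside a range of 0.81 for *Metrnl*. *Pycard* averaged only 0.509 FPKM in Ex, 0.826 FPKM in mTg and 0.307 FPKM in Control libraries. At such levels the added 1 FPKM makes differences on the log2 scale smaller.

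*Mstn*, on chromosome 1 at 53061640 to 53068079 (mm10, plus strand), showed the reverse order of groups. It measured 20.2, 19.8, 21.2, 17.2 and 25.4 FPKM in Ex libraries, 7.06, 12.1, 8.34, 6.51 and 6.69 FPKM in mTg libraries and 29.4, 28.2, 29.1, 32.5 and 27.7 FPKM in Control libraries. No Ex library reached a Control library and no mTg library reached an Ex library, although mTg replicate 2 stood above the other mTg libraries. *Mstn* fell by 0.49 ± 0.09 on the log2 scale in Ex (adjusted p = 0.00449 by limma) and by 1.76 ± 0.13 in mTg (adjusted p = 2.07e-07). Ex against mTg gave 1.27 ± 0.14 (adjusted p = 7.81e-06). Mean *Mstn* in mTg was 0.277 times and in Ex 0.707 times the Control level. *Sorbs2* (0.18), *Phkb* (0.18), which encodes the beta subunit of phosphorylase kinase, and *Ociad2* (0.19) had the nearest profiles over the 15 libraries, beside a range of 2.16 for *Mstn*.

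*Fst*, on chromosome 13 at 114452290 to 114458951 (mm10, minus strand), the gene for the myostatin antagonist, was the least abundant member. It measured 1.43, 2.58, 2.35, 2.38 and 1.52 FPKM in Ex libraries, 1.05, 0.974, 1.59, 1.23 and 1.098 FPKM in mTg libraries and 1.88, 2.32, 1.85, 1.67 and 1.03 FPKM in Control libraries. Control replicate 5 lay within the mTg libraries, and the other 4 Control libraries lay above all mTg libraries. *Fst* fell by 0.32 ± 0.12 on the log2 scale in mTg (adjusted p = 0.0436 by limma), but this call was lost in 11 of 19 alternatives. Without mTg replicate 1, 2, 4 or 5 or Control replicate 1, 2, 3 or 4 its adjusted p lay between 0.0645 and 0.108, and with limma voom on reads it was 0.0653. The exact permutation test did not pass either (p = 0.0556, adjusted p = 0.0952). Ex gave 0.15 ± 0.14 over Control (adjusted p = 0.547). Ex over mTg gave 0.47 ± 0.12 (adjusted p = 0.00609), a call that held in all 18 limma alternatives. The exact permutation test gave p = 0.0238 for it, which did not pass after adjustment (adjusted p = 0.0519). Per unit of *Mstn*, the level of *Fst* was 0.102 ± 0.0352 in Ex, 0.155 ± 0.0449 in mTg and 0.0597 ± 0.0168 in Control libraries (ratio of FPKM, SD, n = 5), with ranges of 0.0598 to 0.139, 0.0806 to 0.191 and 0.0372 to 0.0824. The higher ratio in mTg is not a gain of *Fst*, since mean *Fst* was 0.679 times and mean *Mstn* 0.277 times the Control level. In Ex they were 1.17 and 0.707 times the Control level, and the ratio was not tested. The antisense gene *Gm47040* overlaps *Fst*, and although the libraries were stranded, the sources used here do not give whether reads were counted by strand. *Capn6* (0.13), *Dnal1* (0.16) and *Prex1* (0.16) had the nearest profiles, beside a range of 0.86 for *Fst*.

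Of 16 tested genes of the myostatin and activin pathway, which takes in ligands, receptors, transducers and antagonists, 10 fell and 0 rose in mTg by limma (10 and 0 with limma voom, and 11 and 0 at an unadjusted p under 0.05). Over all tested genes 23.1% fell and 22.3% rose. The list had between 9 and 11 genes falling over all alternatives and a median log2 fold change of -0.30, beside -0.02 over all tested genes. *Inhba*, *Wfikkn1* and *Tll2* were listed but have no value here. *Gdf11*, the closest relative of myostatin, measured 1.03 ± 0.129 FPKM in mTg and 3.76 ± 0.547 FPKM in Control libraries (log2 fold change -1.22 ± 0.09, adjusted p = 1.31e-07). *Ltbp3*, for a latent TGFβ binding protein, measured 9.93 ± 0.640 FPKM in mTg and 16.6 ± 0.909 FPKM in Control libraries (-0.68 ± 0.06). The type I receptor gene *Tgfbr1* (-0.51 ± 0.07) and *Wfikkn2* (-0.66 ± 0.11), for an extracellular antagonist of myostatin, followed, so the genes that fell encode inhibitors as well as mediators. Of the other receptors, *Acvr1b* (-0.54 ± 0.13) and *Acvr2a* (-0.34 ± 0.09) fell, whereas *Acvr2b* gave -0.06 ± 0.13 and did not pass. *Fstl3*, for a follistatin-like antagonist, measured 0.722 ± 0.315 FPKM in mTg and 0.914 ± 0.290 FPKM in Control libraries and did not pass. *Bmp1* (-0.17 ± 0.07) and *Furin* (-0.18 ± 0.09), for proteases that process the myostatin precursor, did not pass either. Nor did *Smad7* (0.19 ± 0.10) and *Smurf1* (0.11 ± 0.08), for intracellular inhibitors, the only tested genes of the list with positive values. In Ex 0 of the 16 genes rose and 0 fell by limma, beside 5.39% and 5.02% of all tested genes. With limma voom 0 were called, and at an unadjusted p under 0.05 1 was higher and 4 lower. The median in Ex was -0.10, beside -0.01 over all genes. In Ex against mTg 6 were higher in Ex and 0 lower, beside 20.7% of all tested genes in each direction.

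**Figure D3:**
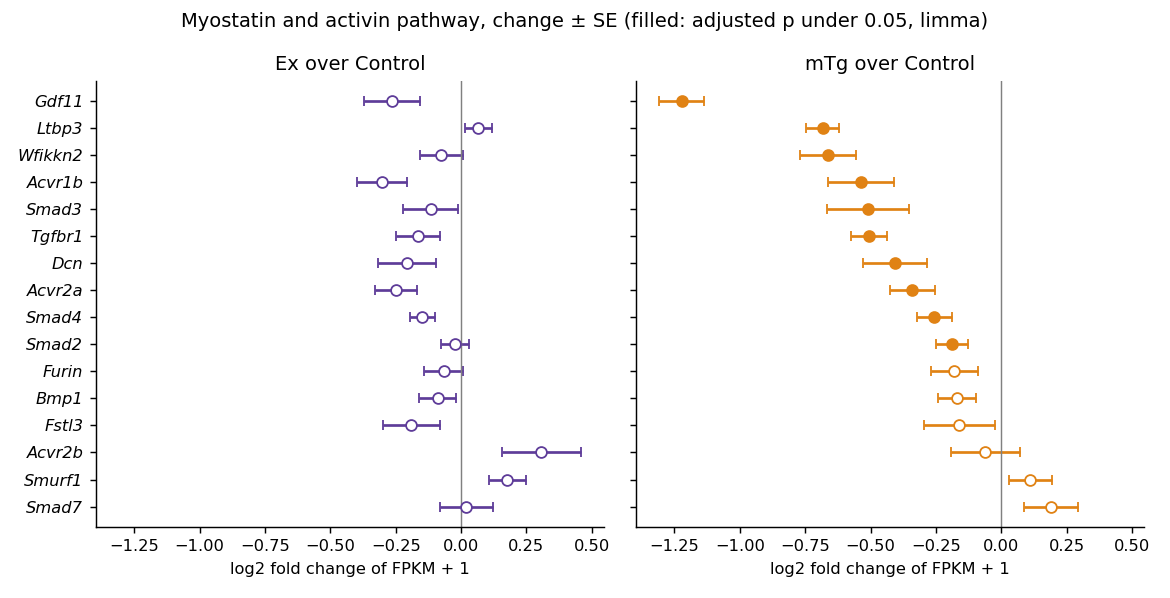
Fitted log2 fold change of FPKM + 1 (horizontal axis) with bars of 1 standard error for the 16 tested genes of the myostatin and activin pathway, in Ex over Control and in mTg over Control. Filled points passed an adjusted p of 0.05 by limma, which 10 genes did in mTg, all lower, and 0 in Ex. Over all tested genes 45.4% were called in mTg and 10.4% in Ex.

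*Il15*, on chromosome 8 at 82331632 to 82403222 (mm10, minus strand), separated mTg from both other groups. It measured 7.73, 5.25, 6.10, 4.69 and 6.05 FPKM in Ex libraries, 18.8, 23.4, 14.8, 13.9 and 11.6 FPKM in mTg libraries and 4.49, 5.70, 4.63, 4.27 and 5.83 FPKM in Control libraries. All mTg libraries lay above every Ex and Control library, while Ex and Control overlapped. *Il15* rose by 1.52 ± 0.15 on the log2 scale in mTg (adjusted p = 3.42e-06 by limma), 3.31 times the Control mean in FPKM. Ex gave 0.21 ± 0.11 over Control (adjusted p = 0.259), and Ex over mTg gave -1.31 ± 0.16 (adjusted p = 1.84e-05). *Slc25a20* (0.17), *Cpt2* (0.17) and *Decr1* (0.20) had the nearest profiles, beside a range of 2.21 for *Il15*. They encode the mitochondrial carnitine-acylcarnitine carrier, carnitine palmitoyltransferase 2 and 2,4-dienoyl-CoA reductase, which serve fatty acid oxidation.

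All 6 tested genes of IL-15 signaling changed in mTg, 4 higher and 2 lower, and 2 rose in Ex, beside 45.4% and 10.4% of all tested genes. *Il2rb*, also listed, has no value here. The alpha receptor gene *Il15ra* measured 7.80 ± 1.69 FPKM in Ex, 12.9 ± 2.71 FPKM in mTg and 8.28 ± 0.937 FPKM in Control libraries, a rise of 0.57 ± 0.13 on the log2 scale in mTg (adjusted p = 0.00313 by limma). *Il2rg*, for the common gamma chain, rose to 3.03 ± 0.531 FPKM in mTg, against 1.45 ± 0.393 FPKM in Control libraries. *Jak3*, for the kinase that binds this chain, rose by 0.28 ± 0.06 in Ex and 0.57 ± 0.09 in mTg on the log2 scale. Downstream are the transcription factor genes *Stat5a* and *Stat5b*. *Stat5a* rose in both groups, by 0.47 ± 0.10 in Ex (adjusted p = 0.0110 by limma) and 0.53 ± 0.10 in mTg (adjusted p = 0.000755) on the log2 scale. *Stat5b* fell to 20.7 ± 1.84 FPKM in mTg, against 59.0 ± 9.44 FPKM in Control libraries (-1.46 ± 0.11), and measured 52.6 ± 4.48 FPKM in Ex, which did not pass (-0.15 ± 0.10, adjusted p = 0.389). *Jak1* fell by 0.44 ± 0.07 in mTg. Macrophage markers summed to 79.9 to 140 FPKM in Ex, 100 to 169 FPKM in mTg and 78.9 to 114 FPKM in Control libraries. Of 9 tested, 3 rose in mTg, beside 22.3% of all tested genes. In Ex 0 were called by limma (0 with limma voom, and 0 at an unadjusted p under 0.05), beside 10.4%. None of these markers was at 0, and their part in these levels was not tested.

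*Igf1*, on chromosome 10 at 87858265 to 87937042 (mm10, plus strand), varied more among libraries than between groups. It measured 2.53, 3.81, 4.98, 5.55 and 1.86 FPKM in Ex libraries, 2.11, 2.35, 2.50, 3.03 and 2.65 FPKM in mTg libraries and 4.78, 3.32, 2.54, 2.63 and 5.27 FPKM in Control libraries. The coefficient of variation was 41.8% in Ex, 13.5% in mTg and 33.8% in Control libraries, and all groups overlapped. mTg gave -0.38 ± 0.15 over Control (adjusted p = 0.0568 by limma), which passed without Control replicate 3 (adjusted p = 0.0220) or Control replicate 4 (adjusted p = 0.0273). Ex gave -0.01 ± 0.23 over Control (adjusted p = 0.978) and 0.37 ± 0.19 over mTg (adjusted p = 0.136), and the second of these passed without Ex replicate 5 (0.53 ± 0.15, adjusted p = 0.0151). The antisense gene *Igf1os* overlaps *Igf1*.

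Of 14 tested genes of the IGF pathway, 1 changed in Ex, a rise, and 5 changed in mTg, of which 1 rose and 4 fell. These shares were below those over all tested genes, 10.4% in Ex and 45.4% in mTg, so the genes that follow are given one by one and not as a change of the pathway. The receptor gene *Igf1r* measured 1.83 ± 0.0741 FPKM in Ex, 1.57 ± 0.217 FPKM in mTg and 1.71 ± 0.161 FPKM in Control libraries and did not pass. *Igf2r*, for the receptor that clears IGF2, rose to 15.5 ± 1.37 FPKM in Ex, against 12.0 ± 0.741 FPKM in Control libraries (log2 fold change 0.35 ± 0.06, adjusted p = 0.00635 by limma). Binding proteins moved in both directions in mTg. *Igfbp5* fell to 88.4 ± 23.7 FPKM in mTg, against 181 ± 40.2 FPKM in Control libraries (-1.03 ± 0.18), whereas *Igfbp7*, which is also an endothelial product, rose to 86.1 ± 18.2 FPKM in mTg, against 61.5 ± 5.94 FPKM in Control libraries (0.46 ± 0.13). *Grb10*, for an adaptor that restrains insulin and IGF receptor signaling, fell by 0.69 ± 0.13 and the substrate gene *Irs2* by 0.61 ± 0.20 on the log2 scale. The median log2 fold change of the list was -0.08 in Ex and -0.12 in mTg. *Igfbp2* and *Pappa* were listed but have no value here.

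Signaling partners of LIF were measured although *Lif* itself was not. *Il6*, *Il11*, *Osm* and *Cntf*, listed with them, have no value here either. The receptor genes *Lifr* and *Il6st*, the second of which encodes gp130, measured 6.73 ± 1.25 and 38.8 ± 2.07 FPKM in Ex, 7.69 ± 1.26 and 37.5 ± 3.19 FPKM in mTg and 7.15 ± 0.693 and 39.7 ± 2.25 FPKM in Control libraries, and neither passed in a comparison with Control. Of 10 tested genes of the list 0 changed in Ex by limma, beside 10.4% of all tested genes. With limma voom 0 changed, and at an unadjusted p under 0.05 1 was higher and 1 lower. In mTg 1 rose and 1 fell, beside 45.4% of all tested genes called. *Cntfr*, which encodes the receptor of ciliary neurotrophic factor, rose to 33.0 ± 10.4 FPKM in mTg, against 11.5 ± 4.33 FPKM in Control libraries (log2 fold change 1.46 ± 0.24, adjusted p = 0.000293 by limma), and the kinase gene *Jak2* fell by 0.43 ± 0.11 on the log2 scale.

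*Sparc*, on chromosome 11 at 55394500 to 55423183 (mm10, minus strand), was the most abundant member and rose in mTg. It measured 128, 198, 194, 191 and 126 FPKM in Ex libraries, 198, 179, 269, 324 and 257 FPKM in mTg libraries and 160, 143, 182, 170 and 203 FPKM in Control libraries. In mTg 3 of 5 libraries lay above every Control library, whereas replicates 1 and 2 lay within the Control range. *Sparc* rose by 0.49 ± 0.15 on the log2 scale in mTg (adjusted p = 0.0154 by limma). This rise did not pass in the exact permutation test after adjustment (p = 0.0397, adjusted p = 0.0794). Ex gave -0.06 ± 0.14 over Control (adjusted p = 0.841). Ex over mTg gave -0.55 ± 0.17 (adjusted p = 0.0215), which no longer passed without Ex replicate 1 (adjusted p = 0.0558), Ex replicate 5 (adjusted p = 0.0555) or mTg replicate 4 (adjusted p = 0.0545). Nor did Ex over mTg pass in the exact permutation test (p = 0.0635, adjusted p = 0.0952). *C1qtnf6* (0.12) and the collagen genes *Col1a2* (0.15) and *Col6a3* (0.15) had the nearest profiles, beside a range of 1.36 for *Sparc*.

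*Fstl1*, on chromosome 16 at 37776873 to 37836514 (mm10, plus strand), did not pass in any comparison. It measured 19.3, 27.2, 26.1, 32.0 and 17.0 FPKM in Ex libraries, 21.7, 22.0, 25.1, 32.0 and 24.5 FPKM in mTg libraries and 20.8, 21.5, 23.8, 21.3 and 21.6 FPKM in Control libraries. The log2 fold changes were 0.12 ± 0.14 in Ex (adjusted p = 0.630 by limma) and 0.18 ± 0.09 in mTg (adjusted p = 0.132), and Ex over mTg gave -0.06 ± 0.15 (adjusted p = 0.768). Its coefficient of variation was 25.0% in Ex and 16.6% in mTg, against 5.42% in Control libraries.

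Ex replicates 1 and 5 were low in several members at once. They held the lowest Ex values of *Sparc*, *Fstl1*, *Igf1* and *Fst*, and they also held the lowest summed level of 10 fibroblast and fibro-adipogenic progenitor markers, 468 and 450 FPKM, against 648 to 710 FPKM in the other Ex libraries. The marker sum ranged from 499 to 761 FPKM in mTg and from 545 to 677 FPKM in Control libraries, with mTg replicates 1 and 2, the lowest in *Sparc*, lowest in it as well. Of the other lists, 3 showed the same libraries low. Ex replicates 1 and 5 were also the lowest Ex libraries in the summed adipocyte (64.8 and 82.3 FPKM, against 127 to 165 in the others), tendon (170 and 130 FPKM, against 219 to 251) and macrophage markers (104 and 79.9 FPKM, against 108 to 140), and mTg replicates 1 and 2 were the lowest mTg libraries in all 3 of these lists. Ex replicate 1 was instead the highest Ex library in endothelial (238 FPKM), smooth muscle and pericyte (152 FPKM) and satellite cell markers (62.2 FPKM). Ex replicate 5 was the highest in Schwann cell markers (55.5 FPKM). None of the fibroblast markers was at 0 in any library. Of the 10 markers, limma called 0 in Ex (0 with limma voom, and at an unadjusted p under 0.05 1 higher), beside 10.4% of all tested genes. In mTg it called 2 higher and 2 lower, beside 22.3% and 23.1%. The pattern is thus neither particular to fibroblast markers nor shared by all lists. The part of any of these cells in the levels of *Sparc*, *Fstl1*, *Igf1* and *Fst* was not tested. *Fndc5*, *Mstn* and *Il15* did not share this pattern, since Ex replicates 1 and 5 were not the lowest Ex libraries in any of them. In *Metrnl* the lowest Ex library was replicate 3.

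**Figure D4:**
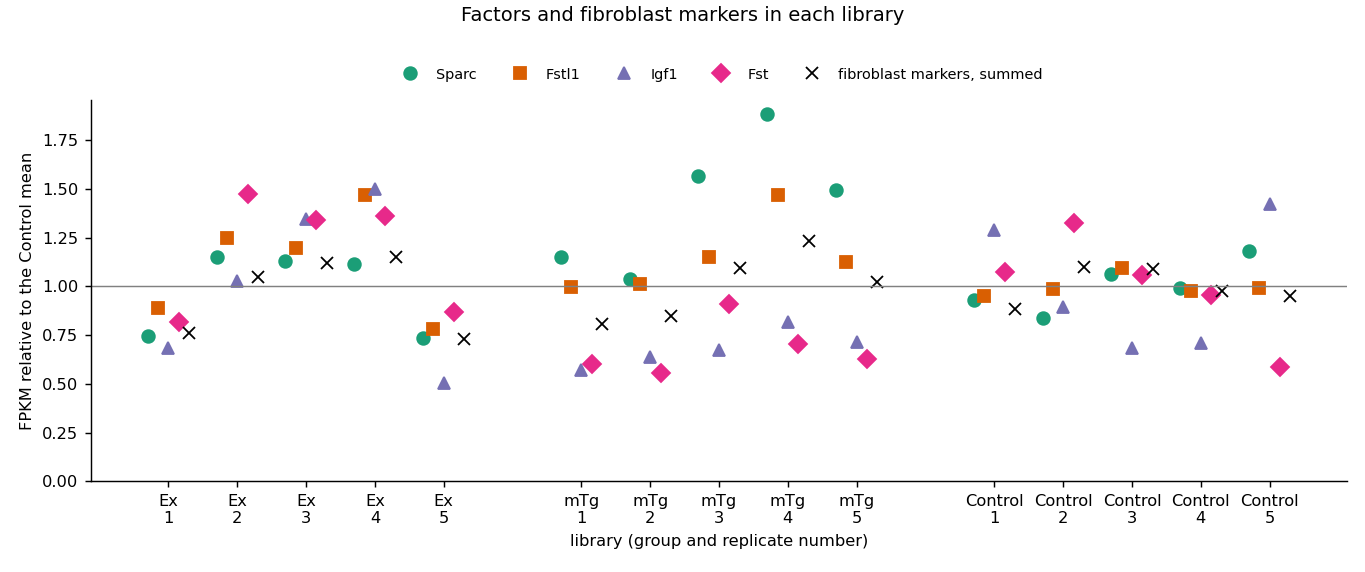
FPKM relative to the Control mean (vertical axis, starting at 0) of *Sparc*, *Fstl1*, *Igf1* and *Fst* and of the summed fibroblast markers (crosses) in each of the 15 libraries. Symbols of 1 library are set side by side. All 5 measures lie below the Control mean in Ex replicates 1 and 5 and at or above it in Ex replicates 2 to 4.

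The SPARC family and its collagen and receptor partners rose more widely than they fell. Of 14 tested genes 3 rose in Ex, beside 5.39% of all tested genes, and 8 rose and 1 fell in mTg, beside 22.3% and 23.1%. The basement membrane collagen genes *Col4a1* and *Col4a2* were among those higher in both, at 66.6 ± 11.0 and 50.4 ± 6.03 FPKM in Ex and 79.0 ± 21.1 and 57.1 ± 12.3 FPKM in mTg, against 44.6 ± 2.86 and 35.2 ± 2.43 FPKM in Control libraries. The integrin subunit gene *Itgb1* also rose in Ex (log2 fold change 0.21 ± 0.06, adjusted p = 0.0405 by limma). Secreted relatives of SPARC moved apart in mTg, where *Smoc1* rose by 0.65 ± 0.11 and *Smoc2* fell by 0.41 ± 0.09 on the log2 scale. The fibroblast marker list shares 3 collagen genes with this list, and the endothelial markers given with *Metrnl* were higher in the same groups. The median log2 fold change of the list was 0.04 in Ex and 0.36 in mTg.

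Of 22 further genes listed as muscle-secreted, 15 could be tested, and *Il7*, *Fgf21*, *Fgf2*, *Gdf15* and *Ccl2* have no value here. Among the 15, 2 rose in Ex, and 4 rose and 2 fell in mTg, beside 10.4% and 45.4% of all tested genes called. *Cx3cl1*, which encodes the membrane-bound chemokine fractalkine, rose to 3.01 ± 1.04 FPKM in Ex, against 0.865 ± 0.149 FPKM in Control libraries (log2 fold change 1.07 ± 0.16, adjusted p = 0.00166 by limma). *Spp1*, for osteopontin, rose by 0.43 ± 0.10 on the log2 scale in Ex. In mTg the vascular growth factor genes *Vegfb* (201 ± 28.7 FPKM in mTg and 71.7 ± 5.79 FPKM in Control libraries) and *Vegfa* (124 ± 20.5 FPKM in mTg and 72.2 ± 11.2 FPKM in Control libraries) rose, by 1.47 ± 0.09 and 0.77 ± 0.13 on the log2 scale. *Apln*, for the peptide apelin, rose by 1.44 ± 0.11, and *Ostn*, for musclin, fell by 1.01 ± 0.14.

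Other cell type markers gave the following background to these levels. Over all tested genes, limma called 5.39% higher and 5.02% lower in Ex, and 22.3% higher and 23.1% lower in mTg. Satellite cell markers summed to 37.1 to 45.6 FPKM in mTg and 51.7 to 57.4 FPKM in Control libraries, with 1 of 6 tested markers higher and 5 lower, and to 53.3 to 62.2 FPKM in Ex, with 0 called by limma (0 with limma voom and 0 at an unadjusted p under 0.05). Smooth muscle and pericyte markers rose in 5 of 8 cases in mTg, and 2 rose and 2 fell in Ex. Schwann cell markers fell in 5 of 7 cases and rose in 1 in mTg, and 1 fell in Ex. In Ex 1 of 6 adipocyte markers fell, and in mTg 1 of 5 tendon markers. Muscle fiber markers were 10 genes, most of them of fast fibers, with *Myh7* for slow fibers. They summed to 85363 to 97880 FPKM in Ex, 71315 to 83268 FPKM in mTg and 97965 to 112090 FPKM in Control libraries. Of the 10, 3 were higher and 5 lower in Ex, and 1 was higher and 7 lower in mTg. The part of these shifts in the members' levels was not tested.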

How the data were processed

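Stranded RNA-seq of polyadenylated RNA from mouse quadriceps was analysed in 15 libraries, grouped by the sample labels into Ex, mTg and Control (n = 5 each). Alignment was to mm10 with STAR, and the study's own comparisons used DESeq2 (1.1.0, from the submitters' processing notes). These ran in a BaseSpace application for RNA-seq alignment. Its gene annotation, its counting tool and whether reads were counted by strand are not given in these sources. The authors deposited 1 FPKM value per gene and library. The deposited tables of changed genes also hold the authors' fold changes, standard errors and p-values, which were not used. Their FPKM columns showed that mTg libraries had been normalized separately with the Control libraries, which there are 0.993 to 1.01 times the values used here. Whole reads were recovered from the FPKM for 100% of 12529 genes (tolerance 0.01 reads). For the tests, log2(FPKM + 1) was fitted with limma 3.58.1 in R 4.3.3 (eBayes with a mean-variance trend, two-sided) on the 10 libraries of each comparison. Genes averaging 0.5 FPKM or more over the 15 libraries (11674) entered, with Benjamini-Hochberg adjustment and a threshold of 0.05. The scripts were tested on simulated data. Depth was 11475817 to 16917490 reads per library, and errors of levels cover the spread between libraries.

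Alternatives were a pseudocount of 0.1, no filter or a minimum of 1 FPKM, libraries rescaled to the same sum (TPM) or by median ratios, 1 fit of all 15 libraries, a replicate block, limma voom on recovered reads and leaving out each library. Control values on the scale of the mTg table were added after seeing the data. The members and lists were chosen with earlier results of these data known, so no limma p was adjusted over them and no list was tested as a set. Only the p-values of the exact permutation test on log2(FPKM + 1) were adjusted over members and comparisons (24 tests, Benjamini-Hochberg). Named were all members, up to 4 genes with the smallest p per pathway list and comparison, receptors and antagonists of the members, and for each changed member the 3 genes with the nearest profile. Gene positions are from GENCODE vM21 (mm10), and promoters from RefSeq (GRCm38.p6). Replicate numbers are shared between groups, but same-numbered libraries did not deviate together, so they were not treated as pairs.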

Additional observations from a re-analysis of the deposited data

Results flagged for a closer look

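*Fstl1* in Control replicate 3 stood apart from the other Control libraries. It measured 23.8 FPKM there, against 20.8 to 21.6 FPKM in the other 4, and the gap to the nearest of them was 0.718 of the whole range, above Dixon's critical value for 5 libraries. It was 1 of 24 groups of member values examined in this way, and chance puts about 1 in 20 past this value.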

How the results depend on the processing

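Of 440 member values recomputed under the alternatives, 421 kept their call, 16 lost it and 3 gained it, and 0 of the called values changed sign. The losses concern *Fst* in mTg over Control (adjusted p of 0.0699 after rescaling to the same sum, 0.0538 in 1 fit of all libraries, 0.0653 with limma voom, and 0.0645 to 0.108 without any 1 of 8 libraries), and *Metrnl* and *Sparc* in Ex over mTg. The gains concern *Igf1*. Leaving out each library in turn gave 755 to 1442 genes called in Ex over Control (1215 with all), lowest without Control replicate 4 (755), Control replicate 3 (765) or Ex replicate 3 (767), 4697 to 5358 in mTg over Control and 4254 to 4911 in Ex over mTg. Members called stayed at 2 in Ex over Control and were 5 or 6 in the other comparisons. With the replicate number as a block, 1039, 5076 and 4414 genes were called, and *Metrnl* in Ex over mTg fell short (adjusted p = 0.0508). Correlations of same-numbered libraries ranged from -0.216 to 0.189, over 0.1 in 4 of 15 cases, and 2 of 15 libraries correlated best with their own number. In the exact permutation test, *Fndc5* and *Mstn* in every comparison and *Il15* in those with mTg had an adjusted p of 0.0238. This test was run on members only, so no share over all genes stands beside it. *Metrnl* passed it only in mTg over Control (adjusted p = 0.0423), and *Fst* and *Sparc* in no comparison. The low read numbers of *Fst* and *Metrnl* limit what can be said of them.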
